A study of Mus musculus with 8 samples.

Results

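The cytosolic ribosomal proteins are the structural proteins of the small and large ribosomal subunits that translate nuclear-encoded mRNAs. On the array used here they were taken by name: all probes whose gene name starts with Rpl or Rps and a digit, or is Rplp0, Rplp1 or Rplp2, without the ribosomal protein S6 kinases. That rule took 82 of 27745 gene names, read by 136 of the 41174 probes. Among the 82 names were 76 subunit genes (30 of the small subunit, 43 of the large subunit and 3 of the P stalk) and 6 paralogs or genes with related names (Rpl3l, Rpl7l1, Rpl22l1, Rpl36al, Rps27l and Rps19bp1). Fau, Rpsa and Rack1, which also encode cytosolic subunits, and 2 Rplp0 probes filed under its older name Arbp do not match the rule and are given separately.

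Gene expression was measured in 4 colon tumors, labelled colon adenoma with the genotype Tcf4Het ApcHet, and in 4 normal colon samples with the genotype TCF4WT ApcHet, all from C57BL/6 mice. RNA came from the distal 2.5 cm of the colon of littermates, each sample from a separate mouse. The titles of all samples say adult, and an exact age is not given. Every mouse, controls included, carried the Apc allele (ApcMin in the protocol), which gives rise to intestinal adenomas. Tcf4 in these labels is the Wnt-pathway transcription factor encoded by Tcf7l2, of which the tumors carried 1 altered copy. Tissue (adenoma or normal) and Tcf4 genotype changed together, so their parts in a difference cannot be told apart. In such bulk RNA, fewer cells of a type and less RNA per cell cannot be told apart either.

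Ribosomal proteins are made in near-equal numbers and assemble with ribosomal RNA in the nucleolus. Their mRNAs are among the most abundant of dividing epithelium, and most begin with a C followed by a run of pyrimidines, the 5′ terminal oligopyrimidine tract, through which mTORC1 and the RNA-binding protein Larp1 set their translation. MYC, a Wnt target in the intestine, raises transcription of ribosomal RNA, of assembly factors and of ribosomal proteins, and unassembled Rpl5, Rpl11 and Rpl23 can bind Mdm2 and so stabilise p53.

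Start-site sequences of some of the genes named below are shown so that a start with a pyrimidine tract can be set beside one without. Each runs from 30 bases before to 20 bases after the gene's start as RefSeq annotates it on GRCm38.p6, 5′ to 3′ on the gene's strand, with the longest pyrimidine run within 20 bases of the start in capitals. The first group carries runs of 8 or more, in genes of both subunits and of the stalk.
Rps6 (chr4:86857348-86857397, minus): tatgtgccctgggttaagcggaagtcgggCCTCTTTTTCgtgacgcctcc
Rps9 (chr7:3704011-3704060, plus): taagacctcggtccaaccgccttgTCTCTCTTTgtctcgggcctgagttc
Rpl35 (chr2:39005112-39005161, minus): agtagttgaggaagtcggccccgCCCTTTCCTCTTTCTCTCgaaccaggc
Rplp2 (chr7:141447621-141447670, plus): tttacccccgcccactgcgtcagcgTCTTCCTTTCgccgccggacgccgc
The second group is of subunit genes whose annotated start has only a short run.
Rps3 (chr7:99483690-99483739, minus): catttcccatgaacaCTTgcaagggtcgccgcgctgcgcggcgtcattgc
Rpl41 (chr10:128549149-128549198, minus): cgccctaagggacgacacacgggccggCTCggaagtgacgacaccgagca
The last group is of the only members called higher in tumors, neither of which is a cytosolic subunit.
Rpl7l1 (chr17:46782637-46782686, minus): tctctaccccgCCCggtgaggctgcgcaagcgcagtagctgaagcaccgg
Rps19bp1 (chr15:80264287-80264336, minus): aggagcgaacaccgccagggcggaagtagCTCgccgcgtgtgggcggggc

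Promoter windows from RefSeq were found for 56 of the 76 subunit genes. A pyrimidine run of 8 or more within 20 bases of the annotated start was present in 26 of the 56 (46.4%), against 4313 of 27025 promoters of all genes, and the median longest run was 7 bases in the subunit genes and 5 in all genes. The letters CTTTC on the coding strand of the same window were found in 30.4% of subunit genes and in 5.44% of all promoters. In the whole window of 250 bases before to 50 bases after the start, on either strand, CCGGAAG was present in 39.3% of subunit promoters and 9.07% of all, GGGCGG in 58.9% and 35.7%, AAGATGGC in 8.93% and 2.86%, the E-box CACGTG in 8.93% and 7.16%, and TATAAA in 10.7% and 14.2%. The E-box letters were therefore about as frequent in subunit promoters as in promoters at large, and the pyrimidine run was not.

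Before the results, the arrays themselves need a word. Of the 8 columns of the deposited log2 table, 4 could be traced to a scanner file, and the column labelled tumor 2 matched a file deposited under normal 4. With columns grouped by their titles, as here, 13.4% of the 31871 kept probes were called at an adjusted p under 0.05 (limma, Benjamini-Hochberg), and with scanner files grouped as filed 0 probes were called (600 at an unadjusted p under 0.05). Without the column labelled tumor 2, 344 probes were called, and the median difference of the ribosomal protein probes was 0.17, against 0.18 with it. Tcf7l2 itself was lower in the columns labelled tumor: its brightest probe averaged 12.81 ± 0.38 in tumors and 14.56 ± 0.31 in normal colon (SD, n = 4 each; difference -1.75 on the log2 scale, adjusted p = 0.0145), with no overlap, although the labels do not say which part of the gene is altered. Epithelial markers were at high levels in both groups (mean log2 value of 8 genes 17.50 to 17.72 in tumors and 17.75 to 18.13 in normal colon), but 7 of the 8 were lower in tumors, with a median difference of -0.41, 4 without overlap and 1 called (Krt20). Of 11 distal colon markers 6 were called lower in tumors (Slc37a2, Prdx6b, Wfdc2, Hoxd11, Hoxa13 and Hoxb13) and 1 higher (Hoxa11).

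Of the 136 ribosomal protein probes, 133 passed the filter on low values, and each of the 82 genes kept at least 1 probe. The 3 that did not pass are further probes, designed on cDNA clones, of Rps2, Rps19 and Rpl22l1. On the 4 traced arrays, 129 of the 136 probes were well above background on every array, and 0 were marked as saturated.

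In the table's values, the ribosomal protein mRNAs differed little between tumors and normal colon. Of the 133 kept probes 2 were called higher in tumors and 1 lower, 2.26% in all, while 13.4% of all kept probes were called (5.62% higher, 7.83% lower). Of the 125 kept probes of true subunit genes 0 were called higher and 1 was called lower, while 18 were higher and 1 was lower at an unadjusted p under 0.05 in limma. Among all members 25 probes (18.8%) had an unadjusted p under 0.05, compared with 32.4% of all probes. Taking the brightest probe of each subunit gene, 0 of 76 genes were called in limma (14 at an unadjusted p under 0.05), and the 95% confidence interval of the difference lay within a 2-fold change in either direction for 74 of the 76 and within 1.5-fold for 49. A missed threshold does not show that the levels were equal. With a variance trend in limma, 15 of the 133 probes (11.3%) were called higher, compared with 7.62% of all kept probes. In the table's values, a change beyond 2-fold was outside the interval for nearly all subunit genes. The columns of the table hold nearly the same value at each of their highest ranks. The bound is therefore on those values and not on amounts of mRNA.

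Within those bounds the differences leaned to one side. The median difference of the 133 probes was 0.18 on the log2 scale, a ratio of 1.13, compared with 0.051 over all kept probes, and 113 of the 133 (85.0%) were above 0, compared with 52.6% of all probes. The 4 tumors lay above all 4 normal samples, with no overlap, for 38 of the 133 probes (28.6%), compared with 10.2% of all kept probes and with 19.5% of all probes as bright as most members (a mean log2 value of 12 or more), and they lay below all 4 for 1 probe (0.752%), compared with 12.6%. By gene, the brightest probe was higher in tumors for 72 of 76 subunit genes, and the groups did not overlap for 25 of these. The median was 0.15 after cyclic loess of the table. With scanner files grouped as filed, which changes both the values and the grouping, it was 0.03 after 75th-percentile scaling and -0.06 after normexp and quantile normalization.

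The shift was small in either subunit, and a difference between them was not tested. For the 30 small subunit genes the median difference was 0.18, with 29 above 0 and 10 (33.3%) without overlap. For the 43 large subunit genes it was 0.22, with 41 above 0 and 14 (32.6%) without overlap. In all of these without overlap the tumors were higher. The same held for 19.5% of all probes as bright as most members and for 10.2% of all kept probes. Those background shares count probes, not 1 probe per gene. Among brightest probes of subunit genes, the lowest difference was that of Rpl4, a protein lining the exit tunnel, at -0.29 ± 0.16 (adjusted p = 0.225). The highest of them was that of Rps15 at 0.66 ± 0.27 (adjusted p = 0.141). Rpl4, Rpl28, Rps23 and Rplp1 were the 4 subunit genes whose brightest probe was below 0.

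**Figure D1:**
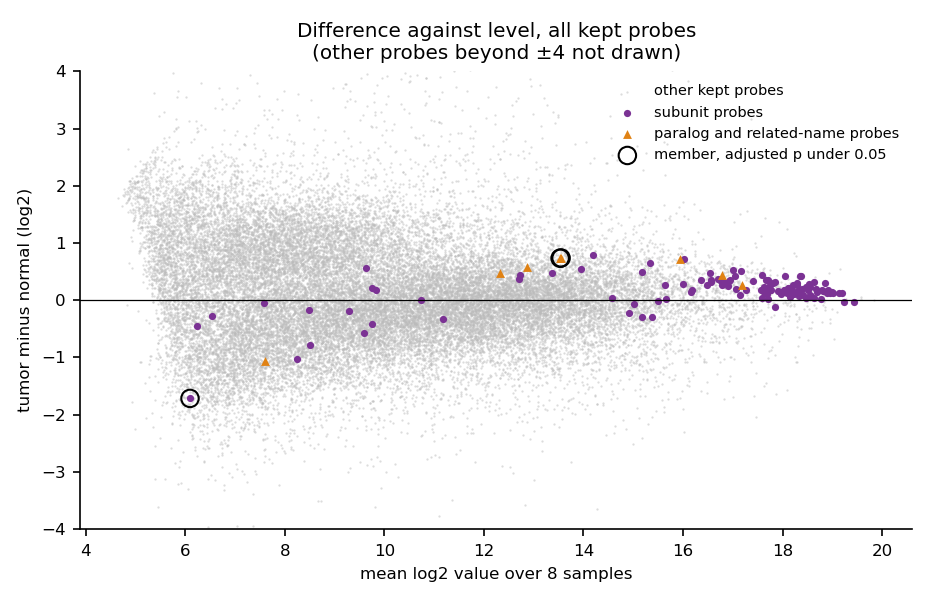
Difference between tumors and normal colon (tumor minus normal, log2, vertical axis) against the mean log2 value over the 8 samples (horizontal axis) for kept probes; grey points are other probes, purple points subunit probes, orange triangles paralogs and related names, and black rings the 3 called members. The bright member probes lie in a narrow band mostly above 0 in the table's values (the median of all members was -0.06 with scanner files as filed, normexp and quantile normalization), and the dim ones scatter, mostly below 0.

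The difference depended on how bright the probe was. Levels of member probes had a gap around a log2 value of 12, with 117 probes of 81 genes above it and 16 probes below it. Of the 117 bright probes 109 were higher in tumors, and all 38 of the probes whose tumors lay above every normal sample were among them. Of the 16 dim probes 12 were lower in tumors, with a median of -0.30. Only 5 of those 16 were designed on a RefSeq mRNA, and the other 11 on cDNA clones, expressed sequence tags or an Ensembl transcript, whereas 111 of the 117 bright probes were designed on RefSeq mRNAs. Among bright probes the median difference was 0.44 at levels of 12 to 16 (21 probes), 0.32 at 16 to 17 (18), 0.18 at 17 to 18 (28) and 0.16 at 18 or more (50), while the medians of all kept probes in those classes lay between 0.0066 and 0.098. The class of 12 to 16 held all kept probes of Rpl7l1, Rps19bp1 and Rpl36al, which are not counted as subunit genes. These differed by 0.48 to 0.74, while subunit probes of that class ranged from -0.29 (Rpl29) to 0.79 (Rps19). The fall in the medians is therefore not that of subunit probes alone. The share of probes whose groups did not overlap, with tumors higher, also depended on brightness: it was 6.99% of all kept probes below 12 and 19.5% of those above. By class, tumors lay above every normal sample for 8 of 21 members at 12 to 16 (19.2% of all probes of that class), 4 of 18 at 16 to 17 (21.5%), 8 of 28 at 17 to 18 (20.7%) and 18 of 50 at 18 or more (22.8%). The 8 members at 12 to 16 included probes of Rpl7l1, Rps19bp1 and Rpl36al. Below 12 this held for 0 of 16 members. At 16 to 17 the members' share was thus close to that of all probes.

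A property of the table bears on the brightest members. All 8 columns hold nearly the same value at each of their highest ranks, so that a probe there can move only by changing places with another. Members made up 50 of the 145 probes at 18 or more, or 34.5%. On the 4 traced arrays before that step, scaled to the 75th percentile and grouped by column title, the median difference of members was 0.36 and that of all kept probes 0.26, while in the same 4 columns of the table they were 0.24 and 0.048. Relative to all probes, the members' median was therefore positive in both.

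The order of the samples within each group was shared by most bright members. Taking each of the 117 probes relative to its own 8-sample mean, the median deviation was 0.17, 0.15, 0.13 and 0.0058 in tumors 1 to 4, and -0.023, -0.19, 0.0095 and -0.21 in normal samples 1 to 4. Normal 2 and normal 4 were thus the lowest, normal 1 and normal 3 were near tumor 4, and tumors 1 to 3 were the highest. The 2 lowest values were those of normal 2 and normal 4 for 82 of the 117 probes (70.1%), compared with 29.4% of all kept probes, and tumor 4 was the lowest tumor for 83 of them. The same samples differed in smooth muscle markers: the mean log2 value of 8 genes (Acta2, Myh11, Des and others) was 14.43, 14.05, 14.27 and 15.14 in tumors 1 to 4, against 14.65, 15.96, 13.66 and 15.86 in normal samples 1 to 4. The 3 samples with the most smooth muscle signal were therefore normal 2, normal 4 and tumor 4, and the part of this in the ribosomal protein difference was not tested. Of the 8 smooth muscle genes 0 were called in limma (0 at an unadjusted p under 0.05). Leukocyte markers also differed, with a mean over 12 genes of 11.71 to 12.23 in tumors and 10.01 to 10.73 in normal colon, 4 of the 12 called higher (Cd68, Lyz2, S100a8 and S100a9). Of 8 proliferation markers 2 were called higher (Mcm5 and Pcna), with a median of 0.39 and list means of 13.21 to 13.78 in tumors and 12.92 to 13.46 in normal colon. Of 10 fibroblast and endothelial markers 9 were higher and 1 was called (Cdh5), with a median of 0.74 and list means of 12.74 to 13.55 in tumors and 11.17 to 13.21 in normal colon. The part of these lists and of the epithelial markers in the ribosomal protein difference was not tested.

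**Figure D2:**
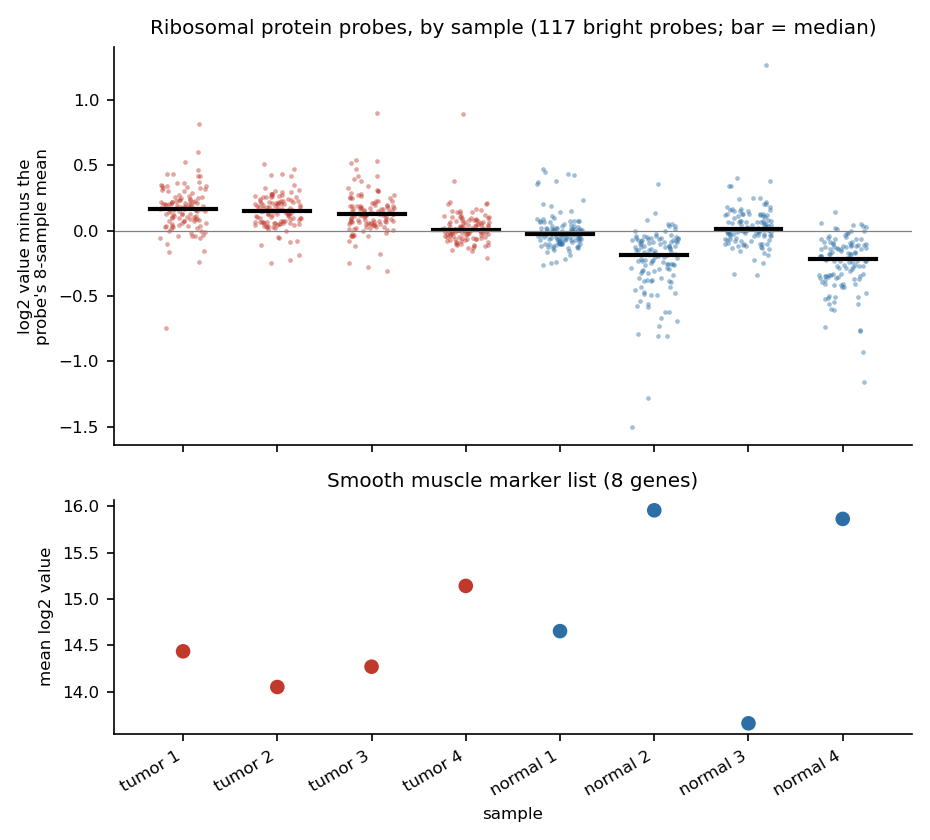
Upper panel, log2 value minus the probe's 8-sample mean for each of 117 bright ribosomal protein probes (points) with the median (bar), in the 4 tumors and then the 4 normal samples; lower panel, mean log2 value of 8 smooth muscle marker genes in the same samples. Normal 2 and normal 4 have the lowest ribosomal protein medians (-0.19 and -0.21) and the highest smooth muscle means (15.96 and 15.86).

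The differences can also be read between samples of the same replicate number, although the labels do not say that these are pairs. The tumor was higher than its same-numbered normal sample for 104, 114, 100 and 106 of the 133 probes in pairs 1 to 4 (78.2%, 85.7%, 75.2% and 79.7%), compared with 50.5%, 52.96%, 43.4% and 51.5% of all kept probes. The median difference of the members was 0.18, 0.32, 0.10 and 0.19 in these pairs. Pairs 1 and 2 each lay within 1 slide as far as the traced columns show, and slides of the other columns are not known. With the replicate number as a block, 0 member probes were called higher and 1 lower in limma (19 at an unadjusted p under 0.05), while 3.92% of all kept probes were called higher and 7.39% lower.

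Small subunit proteins fixed for their roles were not called. Rps6, the small subunit protein phosphorylated by S6 kinases, had log2 values of 18.30, 18.21, 18.14 and 17.99 in tumors, against 18.10, 18.04, 18.03 and 17.96 in normal colon. The groups overlapped, and the difference was 0.13 ± 0.13 (95% interval -0.16 to 0.42, adjusted p = 0.455). Rps14, which lies near the mRNA path of the small subunit, averaged 19.08 ± 0.10 in tumors and 18.95 ± 0.17 in normal colon (SD, n = 4 each; limma adjusted p = 0.487). Rps27a, made as a fusion with ubiquitin, had values of 18.27, 18.24, 18.37 and 18.26 in tumors, against 18.09, 18.06, 18.20 and 18.08 in normal colon. Every tumor was above every normal sample for Rps27a, but the difference of 0.18 ± 0.12 was not called (adjusted p = 0.274). Rps19, mutated in Diamond-Blackfan anaemia in humans, had values of 17.36, 17.34, 17.29 and 17.03 in tumors, against 17.02, 16.56, 17.22 and 16.53 in normal colon. Its difference of 0.42 ± 0.20 was not called (adjusted p = 0.180), and the low samples were again normal 2 and normal 4. A further bright Rps19 probe had values of 15.01, 14.48, 14.71 and 14.18 in tumors, against 14.65, 12.92, 14.60 and 13.04 in normal colon. Its difference of 0.79 ± 0.46 was the highest of any member probe, but the groups overlapped and it was not called (adjusted p = 0.229).

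Other small subunit genes are given for the spread of the set. Rps9 had values of 17.53, 17.47, 17.45 and 17.24 in tumors, against 17.10, 16.71, 17.21 and 16.62 in normal colon, a difference of 0.51 ± 0.18 (adjusted p = 0.0928). Rps2, a protein at the mRNA entry, had values of 18.80, 18.79, 18.90 and 18.66 in tumors, against 18.50, 18.40, 18.61 and 18.37 in normal colon, a difference of 0.32 ± 0.13 (adjusted p = 0.129). Rps3, which also lies at the mRNA entry, differed by 0.30 ± 0.12 (adjusted p = 0.140). Further bright probes differed more, by 0.42 ± 0.14 for Rps2 (adjusted p = 0.0879) and by 0.72 ± 0.25 for Rps3 (adjusted p = 0.0978). On all these probes of the 3 genes the groups did not overlap, yet 0 of them were called. Rps23, a protein of the decoding centre, had values of 19.29, 19.29, 19.20 and 19.11 in tumors, against 19.23, 19.29, 19.23 and 19.29 in normal colon. Here the groups overlapped and the difference was -0.04 ± 0.12 (adjusted p = 0.806).

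The Mdm2 binders Rpl5, Rpl11 and Rpl23 were not called. Their brightest probes all lay at levels of 18 or more, where the median difference of members was 0.16. Rpl5, which carries 5S ribosomal RNA together with Rpl11, had values of 18.58, 18.75, 18.65 and 18.61 in tumors, against 18.67, 18.57, 18.71 and 18.53 in normal colon. Its difference was 0.03 ± 0.12 (95% interval -0.25 to 0.31, adjusted p = 0.853), and its sign turned under cyclic loess and without tumor 2 (-0.0071 and -0.0019). Rpl11 had values of 18.74, 19.12, 19.07 and 18.92 in tumors, against 18.79, 18.82, 18.82 and 18.88 in normal colon, a difference of 0.13 ± 0.13 (adjusted p = 0.458). Rpl23, a protein at the subunit interface, differed by 0.10 ± 0.12 on its brightest probe (adjusted p = 0.535). A further bright Rpl23 probe differed by -0.07 ± 0.15 (adjusted p = 0.718). Of 11 genes of the p53 response to ribosome stress 0 were called in limma (3 at an unadjusted p under 0.05), with a median of 0.10. Mdm2, the p53 ubiquitin ligase, averaged 13.02 ± 0.19 in tumors and 12.34 ± 0.43 in normal colon (SD, n = 4 each; limma adjusted p = 0.0927).

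Among large subunit proteins the smallest adjusted p of a brightest probe was that of Rpl41, a very short basic peptide at the subunit interface, whose mRNA starts at an annotated site with a pyrimidine run of 3. Rpl41 had values of 18.67, 18.55, 18.51 and 18.49 in tumors, against 18.11, 18.09, 18.29 and 18.06 in normal colon. All 4 tumors were above all 4 normal samples, and the difference was 0.42 ± 0.12 (95% interval 0.13 to 0.70, adjusted p = 0.0627, or 0.0935 with the replicate block). Rpl35, a protein at the tunnel exit and the gene with the pyrimidine run of 18 shown above, had values of 17.33, 17.34, 17.25 and 17.16 in tumors, against 16.97, 16.47, 17.13 and 16.41 in normal colon. That difference of 0.53 ± 0.20 was not called (adjusted p = 0.112).

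Subunit genes with and without such a run had medians close together, a description that was not tested. The 26 subunit genes with a run of 8 or more had a median difference of 0.21, with 24 above 0 and 11 without overlap. The 30 genes with a shorter run had a median of 0.19, with 29 above 0 and 9 without overlap. Among all probes as bright as most members, tumors lay above every normal sample for 19.5%, a share of probes and not of genes.

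The stalk proteins recruit elongation factors to the ribosome. Rplp1 had values of 19.32, 19.46, 19.39 and 19.46 in tumors, against 19.39, 19.46, 19.46 and 19.46 in normal colon, so that 5 of the 8 samples held about the same value near the top of the table. Rplp2 had values of 19.25, 19.23, 19.23 and 19.29 in tumors, against 19.12, 19.12, 19.20 and 19.08 in normal colon. Its groups did not overlap, but the difference of 0.12 ± 0.11 was not called (adjusted p = 0.417). Rplp0, the base of the stalk, differed by 0.35 ± 0.22 on the probe under that name (adjusted p = 0.252), and by 0.02 (adjusted p = 0.887) and 0.16 (adjusted p = 0.374) on the pair of probes filed as Arbp. Fau, Rpsa and Rack1, missed by the name rule, were not called: Rpsa differed by 0.41 (adjusted p = 0.1995), Rack1 by 0.21 (adjusted p = 0.217) and Fau by 0.10 (adjusted p = 0.587).

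**Figure D3:**
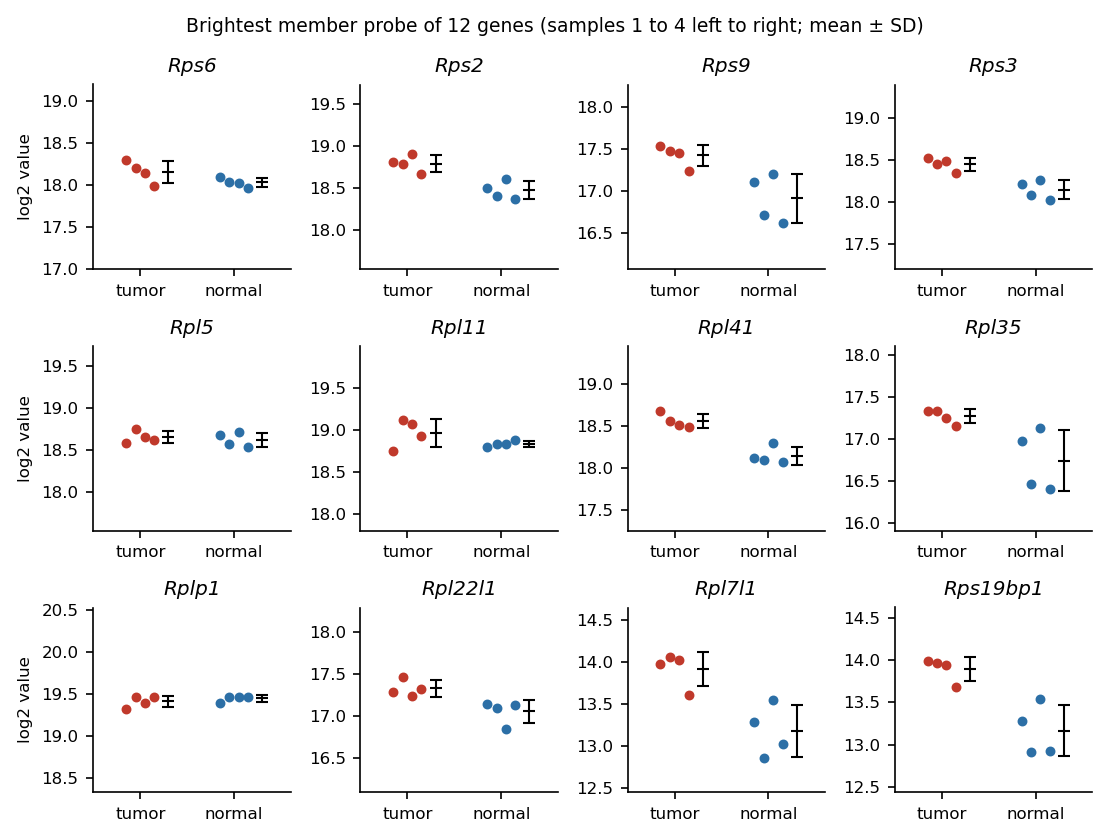
Log2 value of the brightest member probe of 12 genes in each of the 4 tumors (left, red) and 4 normal samples (right, blue), samples 1 to 4 from left to right, with the mean and SD (bars). Rps2, Rps3, Rps9, Rpl41, Rpl35, Rpl22l1, Rpl7l1 and Rps19bp1 have groups that do not overlap, and only the last pair were called.

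Both members called higher in tumors are related to ribosomal proteins by name or sequence and not subunits of the cytosolic ribosome. Rps19bp1, a nucleolar protein that binds Rps19 and the deacetylase Sirt1, had values of 13.997, 13.96, 13.94 and 13.68 in tumors, against 13.28, 12.91, 13.54 and 12.92 in normal colon. All tumors lay above all normal samples, the difference was 0.73 ± 0.18 (adjusted p = 0.0405), and it was not called with the replicate block (adjusted p = 0.0530). A further Rps19bp1 probe differed by 0.58 ± 0.19 (adjusted p = 0.0855). Rpl7l1, a paralog of Rpl7 with a part in assembly of the large subunit, had values of 13.98, 14.06, 14.02 and 13.61 in tumors, against 13.29, 12.86, 13.55 and 13.03 in normal colon. Its difference was 0.74 ± 0.19 (adjusted p = 0.0463, or 0.0605 with the replicate block), and that of a further probe 0.48 ± 0.18 (adjusted p = 0.115). Rpl7, the subunit itself, differed by 0.22 ± 0.12 (adjusted p = 0.214).

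The other paralogs were not called. Rpl36al had values of 16.37, 16.22, 16.48 and 16.16 in tumors, against 15.88, 15.14, 16.15 and 15.18 in normal colon, a difference of 0.72 ± 0.25 (adjusted p = 0.100), beside 0.31 ± 0.13 for the brightest Rpl36a probe (adjusted p = 0.133) and 0.04 ± 0.11 and 0.01 ± 0.12 for its other probes (adjusted p = 0.780 and 0.939). Rps27l, a p53 target in human cells, differed by 0.44 ± 0.14 (adjusted p = 0.0833), beside 0.14 ± 0.12 for Rps27 (adjusted p = 0.389). Rpl22l1 differed by 0.27 ± 0.13 (adjusted p = 0.185), beside 0.26 ± 0.14 for the brightest Rpl22 probe (adjusted p = 0.202) and -0.22 ± 0.15 for its other bright probe (adjusted p = 0.269). Rpl3l, a paralog of Rpl3 made mainly in striated muscle, had values of 6.37, 6.83, 8.45 and 6.61 in tumors, against 6.01, 9.06, 6.95 and 10.47 in normal colon. Its highest values were those of normal 2 and normal 4, and its difference of -1.06 ± 0.99 was not called (adjusted p = 0.426), beside 0.06 ± 0.13 for Rpl3 (adjusted p = 0.710). Paralogs and parents share sequence, and whether their probes cross-hybridise was not tested.

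The 1 probe called lower was a dim probe of Rpl35a, a large subunit protein. It was designed on a cDNA clone (mm8 chr16:32977335-32977394) and had values of 4.56, 5.37, 5.06 and 5.97 in tumors, against 7.27, 7.12, 5.74 and 7.68 in normal colon. The groups overlapped, tumors 1 to 3 lay below the detection limit of 5.59, and the difference of -1.72 ± 0.46 was called only just (adjusted p = 0.0490, and 0.0699 after cyclic loess). Further Rpl35a probes, designed on its RefSeq mRNA, differed by 0.44 ± 0.19 (adjusted p = 0.161) and 0.48 ± 0.24 (adjusted p = 0.189), in the opposite direction.

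Probes of 1 gene often disagreed in this way. Of 39 genes with several kept probes 16 differed between probes in sign or call, and after Rpl35a the widest ranges were those of Rps6, Rpl13, Rpl21, Rps15a and Rpl11. For Rps6 the dim clone-based probe (mm8 chr4:86308526-86308585) averaged 7.73 in tumors and 8.76 in normal colon, a difference of -1.03 ± 0.47 (adjusted p = 0.169), beside 0.13 for the bright probe (mm8 chr4:86327213-86327404). For Rpl13, a large subunit protein, the dim probe had values of 7.84, 8.37, 7.82 and 8.42 in tumors, against 8.62, 9.63, 7.62 and 9.72 in normal colon, a difference of -0.79 ± 0.47 (adjusted p = 0.241). The dim Rpl11 probe had values of 9.23, 9.56, 8.87 and 9.60 in tumors, against 9.48, 10.62, 8.61 and 10.83 in normal colon, a difference of -0.57 ± 0.49 (adjusted p = 0.392). Both dim probes were highest in normal 2 and normal 4, and these were the 2 highest samples for 6 of the 16 dim members (37.5%), compared with 26.2% of all kept probes below 12. The other 10 had other orders, such as the dim Rps6 probe, which was highest in normal 1. Rpl21 ranged over its probes between -0.32 and 0.55, and Rps15a between -0.44 and 0.27. In 28 genes with several bright probes, the dimmer probe had the larger difference in 17, and the medians were 0.25 for the dimmest and 0.23 for the brightest.

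Related lists give the setting of these values. Counting 1 probe per gene, 14.5% of 21638 genes were called by the same adjusted p (7% higher and 7.54% lower, counted after adjustment over genes; the counts that follow use the adjustment over probes). Of 29 ribosome assembly factors 11 were called higher and 1 lower (41.4%), with a median difference of 0.64. Fbl, the methyltransferase of box C/D small nucleolar RNPs, averaged 17.36 ± 0.19 in tumors and 16.64 ± 0.09 in normal colon (SD, n = 4 each; difference 0.72, limma adjusted p = 0.0235). Rpf2, which places the 5S particle of Rpl5 and Rpl11 into the large subunit, averaged 14.47 ± 0.26 in tumors and 13.40 ± 0.32 in normal colon (difference 1.07, limma adjusted p = 0.0235). Sbds, which helps release Eif6 from late large subunits, was called lower, averaging 15.54 ± 0.16 in tumors and 16.41 ± 0.26 in normal colon (difference -0.87, limma adjusted p = 0.0233). With the replicate block 8 assembly factors were called higher and 1 lower.

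RNA polymerase I and its factors gave 2 of 14 called higher and 0 lower, with a median of 0.31: Polr1e, a subunit of the polymerase, differed by 0.78 ± 0.16 (adjusted p = 0.0262), and Rrn3, its initiation factor, by 0.79 ± 0.19 (adjusted p = 0.0364, or 0.0572 with the replicate block). Of 12 other mRNAs known to carry a 5′ oligopyrimidine tract 2 were called higher and 0 lower, with a median of 0.23. They were Hnrnpa1, a splicing regulator (0.68 ± 0.13, adjusted p = 0.0219), and Nap1l1, a histone chaperone (0.75 ± 0.17, adjusted p = 0.0325, or 0.0524 with the block). Of 10 translation elongation factor genes 1 was called higher, Eef1e1, a scaffold protein of the tRNA synthetase complex (0.98 ± 0.23, adjusted p = 0.0340), with a list median of 0.18. Mitochondrial ribosomal proteins, which belong to a separate ribosome, had a median of 0.26 over 75 genes, with 4 called higher and 0 lower (5.33%). The first 3 by p-value were Mrpl38 (0.62), Mrpl33 (0.65) and Mrpl11 (0.76), and with the replicate block 0 of the 75 were called (16 higher and 1 lower at an unadjusted p under 0.05 without it).

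Upstream regulators moved in both directions. In the mTORC1 pathway 2 of 13 genes were called higher and 1 lower, with a median of -0.07: Tsc1, an inhibitor of mTORC1, differed by -1.17 ± 0.28 (adjusted p = 0.0344), the cap-binding protein gene Eif4e by 0.49 ± 0.12 (adjusted p = 0.0394) and its repressor Eif4ebp1 by 0.83 ± 0.21 (adjusted p = 0.0405). Eif4e and Eif4ebp1 were not called with the replicate block (0.0732 and 0.0529). In the MYC family 2 of 8 genes were called higher and 1 lower, with a median of 0.07. Myc averaged 13.48 ± 0.53 in tumors and 12.45 ± 0.21 in normal colon (SD, n = 4 each; difference 1.04, limma adjusted p = 0.0453), Mycl differed by 1.44 (adjusted p = 0.0467), and Mxd1, an antagonist of MYC, by -0.90 (adjusted p = 0.0413). These 3 were not called with the replicate block (adjusted p = 0.0578, 0.0560 and 0.0524).

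**Figure D4:**
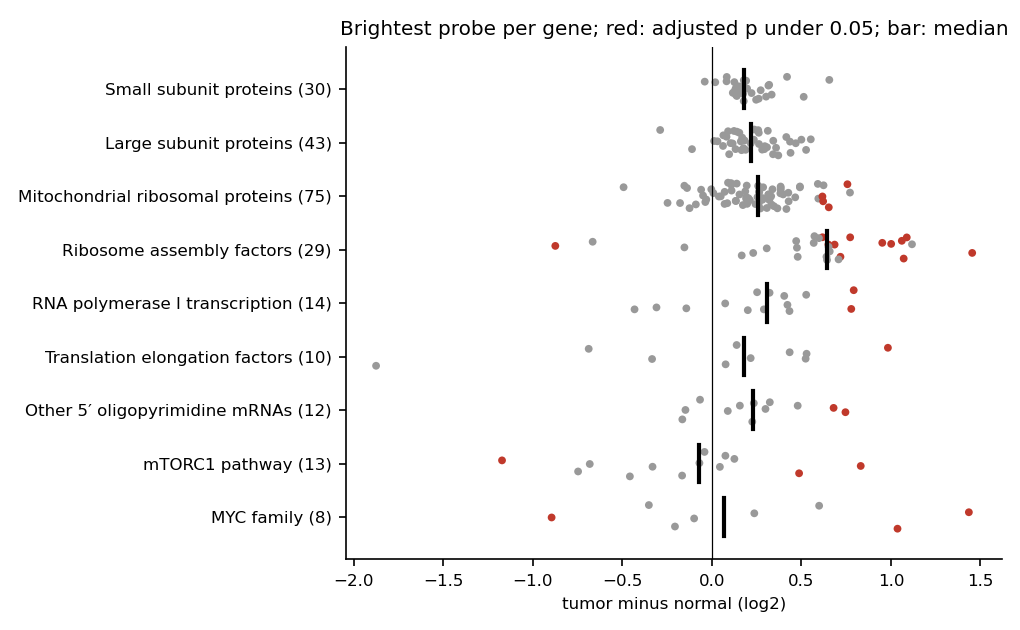
Difference between tumors and normal colon (tumor minus normal, log2, horizontal axis) of the brightest probe of each gene in 9 gene lists, with the number of genes in parentheses; red points were called at an adjusted p under 0.05 and black bars are medians. Subunit genes cluster at medians of 0.18 and 0.22 with 0 called, and assembly factors have a median of 0.64 with 12 of 29 called.

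Counts of called probes rested on single samples. Without normal 3, 20.3% of the members were called (25 probes higher and 2 lower of 133), but so were 51.7% of all kept probes (27.4% higher and 24.3% lower). Without any 1 of the other 7 samples 0 members were called in limma (10 to 21 at an unadjusted p under 0.05), while between 1 (without tumor 3) and 2430 (without tumor 4) of all kept probes were. The median difference of the members was steadier, between 0.15 (without normal 2) and 0.21 (without tumor 4 or normal 3). Members whose tumors lay above every normal sample numbered 67 (50.4%) without tumor 4, compared with 12.7% of all kept probes, and 59 (44.4%) without normal 3, compared with 29.1%. Without any 1 of the other samples they made up 28.6% to 32.3% of members, compared with 10.7% to 11.8% of all kept probes. With a variance trend in limma, 15 members were called higher and 0 lower, beside 7.62% and 9.5% of all kept probes.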

How the data were processed

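Each sample is 1 Agilent 60-base oligonucleotide array hybridised with Cy3-labelled RNA. The main values are the deposited log2 table, in which the authors gave 1 log2 value per probe and sample; its normalization is unstated, but the 8 columns share 1 median (8.51) and nearly the same value at each of the highest ranks. Per the file headers, spot intensity (processed, mean and background signal, with saturation and above-background marks) was read by Feature Extraction 9.5.1.1 on design 014868, built on mm8; the submitters' processing notes give version 10.1.1.1. Columns were grouped by sample title.

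The deposited intensity files disagree with the table on sample identity, which is why the table, not the scanner files, carries the results. By rank correlation (1.000 over probes) and matching empty cells, 4 columns were traced: tumor 1 to its own file, tumor 2 to the file of normal 4, normal 1 to the file of normal 2, and normal 2 to the file of normal 3. The other 4 columns matched no file (highest correlation 0.989).

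Probes were kept with a log2 value of 5.59 or more on 4 of the 8 arrays, 31871 of 41174. On each of the 4 traced arrays, 95% of the probes without the above-background mark lay under some value, and the limit is the median of those 4 values. Differences were fitted by limma 3.58.1 (R 4.3.3; lmFit and a 2-sided eBayes test), and p-values were adjusted by Benjamini-Hochberg over every kept probe; a probe is called at an adjusted p under 0.05, and that rule stands behind every adjusted p given. The procedure was tested on simulated data with known changes. These were larger than the difference of any member, so the test does not show how well differences of the members' size are found. The error given with a difference is its standard error from that fit. Gene names are those of the array files, updated through RefSeq by accession where possible. In counts of genes, the brightest kept probe stands for a gene.

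Members and gene lists were chosen with earlier results of these data known. Genes are named by rule: called members whose groups do not overlap, the stalk proteins, Mdm2 binders, Rps6, Rps14, Rps19, Rps27a, paralogs with their parents, genes whose probes disagree most, and up to 3 called genes of each related list. Rpl41, Rps2, Rps3, Rps9, Rps15, Rps23, Rpl4, Rpl28, Rpl35 and the called Rpl35a probe were named after their values were seen, as was the level of 12 that parts bright from dim member probes.

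Samples of the same replicate number were read as pairs, although the labels do not say what a number marks. Deviations from the group means correlated within every numbered pair (0.226, 0.389, 0.565 and 0.381). However, only 5 of the 8 samples correlated best with the same-numbered sample of the other group, so the pairing is not established. The fit with the replicate number as a block was an alternative. Other alternatives were no filter, 1 probe per gene, cyclic loess, centring, a variance trend, scanner values grouped as filed (75th-percentile scaling, or normexp with offset 50 and quantile normalization), and leaving out each sample in turn.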

Additional observations from a re-analysis of the deposited data

Results flagged for a closer look

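In 8 of 108 groups of 4 samples of named probes, a single sample stood apart from the other 3 by Dixon's test, where chance alone gives about 1 in 20 groups. Rps19bp1 had its lowest tumor value, 13.68, in tumor 4, with the other tumors between 13.94 and 13.997. Rps27l had its lowest tumor value, 16.91, in the same tumor, with the others between 17.02 and 17.05, as did Eef1e1, at 13.03 with the others between 13.64 and 13.73. Rplp1 had its lowest normal value, 19.39, in normal 1, with the others all at 19.46. Rpl22l1 had its lowest normal value, 16.84, in normal 3, with the others between 17.09 and 17.14. Normal 3 also stood apart for Mxd1 (lowest, 16.15, others 16.38 to 16.42), Mycl (highest, 14.09, others 12.54 to 12.79) and Tsc1 (lowest, 10.29, others 11.19 to 11.29). For Mxd1, Mycl and Tsc1 the value of normal 3 lay on the side of the tumors.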

How the results depend on the processing

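For 53 named probes, the values under the alternatives kept direction and side of the threshold in 592 cases, lost the call in 196, gained one in 16 and turned in sign in 42. The median difference of the ribosomal protein probes (0.18) stayed between 0.15 and 0.21 under all alternatives that used the 8 table columns or 7 of them. It was 0.032 with scanner values as filed, -0.062 with scanner values as filed, normexp and quantile normalization, and 0.36 in scanner values of the 4 traced arrays, an alternative chosen after seeing the data, as was the count without overlap. With both kinds of scanner values as filed, 0 probes were called, 0 members higher and 0 lower in limma (600 and 730 probes and 0 and 1 members at an unadjusted p under 0.05), and with the first 0 of the 38 members without overlap were left; these alternatives change both the values and the grouping. Members called numbered 0 higher and 0 lower without a filter, and 0 higher with the replicate block, which pairs the samples by number (1 lower). They numbered 0 lower with 1 probe per gene and with cyclic loess. With a variance trend they numbered 15 higher (11.3%, compared with 7.62% of all kept probes) and 0 lower. Leaving out each sample in turn gave 1 to 16474 called probes, 0 to 25 members called higher, 0 to 2 called lower, and 38 to 67 members without overlap (28.6% to 50.4%, compared with 10.7% to 29.1% of all kept probes). The block ended the calls of 13 named probes, Rps6ka3 among them, and changed no other call of a named probe.

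Signs turned for Rpl5 under cyclic loess (-0.0071) and without tumor 2 (leaving out each sample gave -0.0019 to 0.061); the cause was not tested. With scanner values as filed they turned for Rpl7l1 (-0.066), Rplp0 (-0.18), Rplp1 (0.12), Rpl5 (-0.020), Rpl11 (-0.0016), Rps6 (-0.088), Rps19 (-0.091), Rpl3 (-0.20), Rps23 (0.082), the dim Rpl35a probe (0.39), Eef1e1 (-0.13), Eif4e (-0.13), Mxd1 (0.11), Nap1l1 (-0.21), Polr1e (-0.19) and Rrn3 (-0.094). With normexp and quantile normalization of those values they turned for Rpl7l1 (-0.037), Rplp0 (-0.22), Rplp2 (-0.14), Rpl5 (-0.18), Rpl11 (-0.23), Rpl23 (-0.14), Rps6 (-0.19), Rps14 (-0.087), Rps19 (-0.15), Rps27 (-0.048), Rpl3 (-0.29), Rpl36a (-0.076), Rpl7 (-0.046), Rpl13 (-0.049), Rps15a (-0.0061), Rps3 (-0.074), Rps9 (-0.053), the dim Rpl35a probe (0.28), Eef1e1 (-0.099), Eif4e (-0.13), Mxd1 (0.076), Nap1l1 (-0.18), Polr1e (-0.21) and Rrn3 (-0.058).

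With 4 samples a group, p-values rest on the spread between these mice, and differences of the size seen here were mostly below what this test calls. The 16 dim probes lie nearer the detection limit than the bright ones. No scanner file matched 4 of the 8 columns. Of the traced columns, only tumor 1 matched the file deposited under its own sample. Which mouse a column came from was therefore not settled for any column but tumor 1.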

Other observations

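The ribosomal protein S6 kinases, left out of the members by name, did not move as a family. Of 10 kinase genes 1 was called higher and 1 lower, with a median difference of -0.14. Rps6kl1, a kinase-like gene with no established ribosomal substrate, averaged 11.72 ± 0.34 in tumors and 8.65 ± 1.16 in normal colon (SD, n = 4 each; difference 3.07, limma adjusted p = 0.0198, or 0.0402 with the replicate block). Rps6ka3, which encodes the growth-factor kinase RSK2, averaged 10.88 ± 0.04 in tumors and 11.40 ± 0.06 in normal colon (difference -0.52, limma adjusted p = 0.0281, or 0.0602 with the replicate block). Rps6kb1 and Rps6kb2, which encode the kinases that phosphorylate Rps6 downstream of mTORC1, differed by 0.08 (adjusted p = 0.723) and -0.17 (adjusted p = 0.466).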
